A study of Mus musculus with 30 samples.

Results

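The genes described here are 10 imprinted genes of the mouse, H19, Igf2, Mest, Peg3, Grb10, Cdkn1c, Dlk1, Snrpn, Peg10 and Phlda2. Members were taken as every probe whose gene symbol in the deposited signal table equals one of these names. That gave 9 of the 10 genes and 11 of the 25697 probes, with 3 probes for Mest and 1 for each other gene. Snrpn was not analysed here, and 2 probes of Snurf, which shares a transcript with Snrpn, are described with its cluster.

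The series holds 30 Illumina mouse bead arrays from 5 clones of Ainv15, a mouse embryonic stem cell (ESC) line that expresses the reverse tetracycline transactivator. Each rescue clone carries an shRNA against 1 gene together with a doxycycline (Dox)-inducible copy of that gene which the shRNA does not recognise, so that withdrawing Dox removes the copy and leaves the knockdown. The clones are Bub1b_R (a spindle checkpoint kinase), Chek1_R (a DNA damage checkpoint kinase), Ppm1g_R (a protein phosphatase), Ppp2r1b_R (a scaffold subunit of protein phosphatase 2A) and the control clone Control_R. Each was hybridised in 3 arrays with Dox (1 μg/ml) and in 3 arrays after 5 days without it, which makes 10 conditions.

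All 5 clones carry the transactivator and were kept on mouse embryonic fibroblasts, and the study's methods state that the cells for the arrays were grown without feeders. The 129P2/OlaHsd background is given for Control_R alone. The labels do not say whether the 3 arrays of a condition came from separate cultures or from separate clones of the same gene, so the p-values measure the spread between these arrays, which may be technical. A difference between clones here is a difference between single named lines, and neither the targeted gene nor the act of cloning can be separated from it.

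An imprinted gene is read from only 1 of the parental copies, and the choice is kept by DNA methylation that is laid down in the germ line at CpG-rich control regions and copied at each cell division. Zfp57 binds the methylated hexamer TGCCGC in many of these regions, and with Trim28 it holds the mark during the loss of methylation in the early embryo. Imprinted genes tend to sit in clusters and to act on growth, and in cultured mouse ESCs their methylation and expression are known to vary between sublines. The arrays measure the sum of both parental copies and no methylation, so nothing below speaks to allelic expression.

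Promoters of the 4 members called on Dox withdrawal in at least 2 rescue clones are shown to let the CpG content be seen. They are RefSeq windows of build GRCm38.p6, 250 bases before to 50 bases after a listed start, printed 5′ to 3′ on the gene's own strand with every CpG in capitals. Where a gene has several listed starts, the window with the most hexamer matches and then the most CpGs was taken. The windows are chr7:142661222-142661521 (minus strand, Igf2), chr6:30737800-30738099 (plus strand, Mest), chr7:6730370-6730669 (minus strand, Peg3) and chr12:109452573-109452872 (plus strand, Dlk1).
Igf2: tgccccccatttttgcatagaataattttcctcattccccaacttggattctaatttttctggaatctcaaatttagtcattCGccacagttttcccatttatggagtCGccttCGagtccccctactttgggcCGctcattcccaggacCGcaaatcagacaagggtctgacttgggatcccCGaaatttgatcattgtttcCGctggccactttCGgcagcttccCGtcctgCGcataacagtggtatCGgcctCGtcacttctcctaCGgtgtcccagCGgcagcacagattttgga
Mest: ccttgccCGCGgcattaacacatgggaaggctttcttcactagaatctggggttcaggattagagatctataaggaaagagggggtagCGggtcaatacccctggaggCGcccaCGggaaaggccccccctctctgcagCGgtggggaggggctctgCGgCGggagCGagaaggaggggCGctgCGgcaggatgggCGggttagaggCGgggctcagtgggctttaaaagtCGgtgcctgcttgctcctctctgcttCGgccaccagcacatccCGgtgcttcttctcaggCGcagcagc
Peg3: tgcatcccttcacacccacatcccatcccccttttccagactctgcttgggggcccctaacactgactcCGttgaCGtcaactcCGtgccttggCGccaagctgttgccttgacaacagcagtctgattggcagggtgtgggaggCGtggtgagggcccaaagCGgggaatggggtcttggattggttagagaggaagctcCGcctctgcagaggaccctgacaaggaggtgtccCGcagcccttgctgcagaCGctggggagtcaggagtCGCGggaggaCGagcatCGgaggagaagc
Dlk1: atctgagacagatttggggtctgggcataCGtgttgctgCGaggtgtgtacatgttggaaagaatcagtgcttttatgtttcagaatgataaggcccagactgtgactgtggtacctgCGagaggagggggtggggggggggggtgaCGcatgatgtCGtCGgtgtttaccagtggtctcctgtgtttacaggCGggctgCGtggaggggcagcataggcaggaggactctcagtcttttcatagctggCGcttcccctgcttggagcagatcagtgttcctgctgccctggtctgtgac
The windows hold 14 CpGs for Igf2, 17 for Mest, 13 for Peg3 and 9 for Dlk1, against a median of 7 over 32851 promoters. Those of Igf2 and Mest were picked among several, so their counts are not like for like with that median. The other listed windows of Igf2 hold 24, 7 and 2 CpGs, and those of Mest 17 and 8. The hexamer TGCCGC, searched on both strands (GCGGCA on the printed strand counts too), matched 2 times in the Mest window and 1 time in the Igf2 window, with no match in those of Peg3 and Dlk1. RefSeq promoters were found for 6 of the 9 measured members, 12 windows in all. Of these 12 windows 4 held the hexamer, in Mest, Igf2 and Grb10, while 11.6% of all promoters hold it. The difference was not tested. Of the Mest windows, those starting at 30737800 and 30737803 overlap almost wholly and share their matches. A match describes letters, not binding.

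The arrays fall into 2 sets by signal. On the 12 arrays of Control_R and Bub1b_R (the low-signal set) the lowest signal called detected lay between 12.9 and 20.9, and on the other 18, those of Ppm1g_R, Ppp2r1b_R and Chek1_R (the high-signal set), between 27.8 and 58.1. Between 11733 and 13685 probes were detected per array, and the 3 arrays of a condition correlated at 0.990 to 0.997. A difference between clones of different sets cannot be told apart from the array set, so the 4 clone pairs within a set come first and the 6 pairs across the sets stand apart. All values below are log2 signals after normalization, 1 unit being a doubling, and a probe was called at a limma Benjamini-Hochberg adjusted p under 0.05 and a difference of at least 1.5-fold. All 11 member probes passed the detection filter, 9 of them on all 30 arrays, and H19 and a Mest probe on 29.

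The targeted genes were read as a check of the labels. Ppm1g fell by 1.25 on Dox withdrawal in Ppm1g_R (adjusted p 4.5e-09). Chek1 went against its label, since its brighter probe was higher without Dox on the arrays labelled Chek1_R by 0.71 (adjusted p 0.0011) and was detected on 0 of the 3 arrays with Dox, a rise of at least 1.35-fold. Bub1b in Bub1b_R (-0.14, adjusted p 0.22) and Ppp2r1b in Ppp2r1b_R (0.20, adjusted p 0.37) did not pass. Against Control_R, Bub1b was lower in Bub1b_R (-0.68), Ppm1g in Ppm1g_R (-1.04) and Chek1 in Chek1_R (-1.47, from a probe detected on 3 of the 6 arrays labelled Chek1_R). Whether these probes read the rescue copies was not tested, and every direction given below for the arrays labelled Chek1_R rests on their Dox labels.

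Of the 9 member genes, 6 rose on Dox withdrawal in at least 1 rescue clone (Igf2, Mest, Peg3, Dlk1, Cdkn1c and Peg10), and the calls for the members were all in the higher direction. Of all 11177 tested gene symbols, 8.64% were called higher in at least 1 of the same 4 clones. In Bub1b_R the called members were Peg3, Cdkn1c and Peg10, where 2.94% of the 15151 tested probes were called higher and 5.60% in either direction. On the arrays labelled Chek1_R they were Igf2, Mest, Peg3 and Dlk1, against 4.49% higher and 9.27% in either direction. In Ppp2r1b_R they were Mest, Peg3 and Dlk1 (2.77% and 4.82%). In Ppm1g_R the call was Igf2 (2.30% and 4.37%). In Control_R no member was called by limma, against 0.706% and 1.10% of all probes, nor by the methods' unadjusted test at the same fold limit, and 1 member, Igf2, passed on its adjusted p with less than 1.5-fold.

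Called or not, 41 of the 44 member changes in the rescue clones (11 probes in 4 clones) were above 0, and 8 of 11 in Control_R. The median change over the 11 probes was 0.36 in Bub1b_R, 0.15 in Ppm1g_R, 0.47 in Ppp2r1b_R and 0.82 on the arrays labelled Chek1_R, beside medians over all tested probes between -0.016 and -0.0059. In Control_R it was 0.12. With the 6 arrays labelled Chek1_R left out, 6 member genes were called in the other 3 rescue clones.

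**Figure D1:**
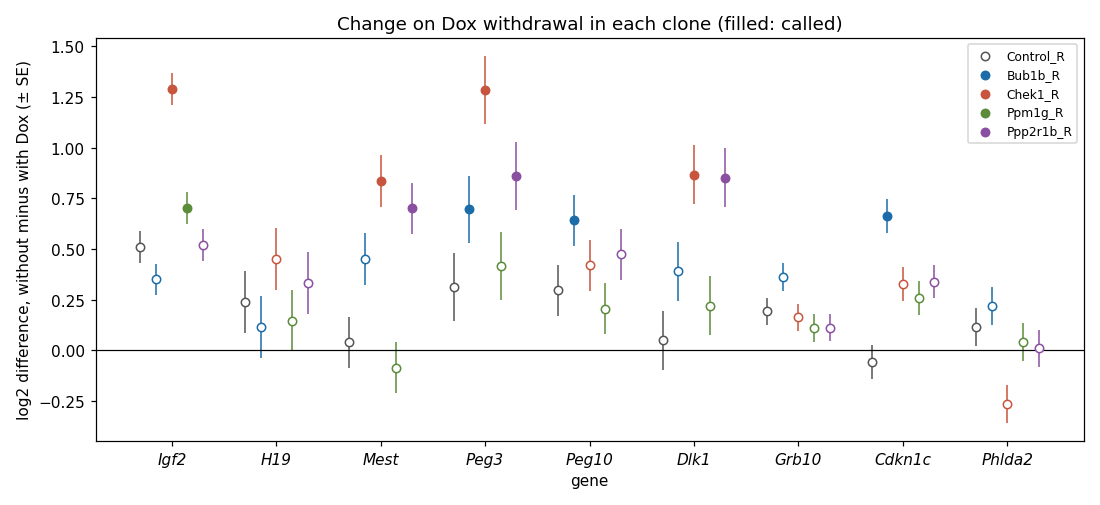
Change on Dox withdrawal of the 9 genes (for Mest the brightest probe) in the 5 clones. The y axis is the log2 difference without minus with Dox, points are the limma estimates over 3 against 3 arrays with their SE, and filled points were called. Igf2 and Peg3 on the arrays labelled Chek1_R lie highest at 1.29 and 1.28, and no point of Control_R is filled.

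Differences between clones within an array set were called for 7 of the 9 genes, and changes on Dox withdrawal in the rescue clones for 6. These counts are not like for like, since a clone difference over both Dox states rests on more arrays than a Dox change. Of all tested gene symbols, 33.6% were called between clones within a set, and 8.64% were called higher on withdrawal. Within the low-signal set, Igf2, Mest, Peg3, Grb10, Dlk1 and Peg10 were higher in Bub1b_R than in Control_R, 6 of 9 genes, where 16.5% of all tested probes were called. Within the high-signal set, Chek1_R against Ppm1g_R called H19 and Igf2 lower and Mest higher (6.26% of all probes). Chek1_R against Ppp2r1b_R called H19, Igf2, Mest, Grb10 and Dlk1 lower (7.96%), and Ppm1g_R against Ppp2r1b_R called Mest, Grb10 and Dlk1 lower (14.5%). In all, 7 of the 9 genes were called in at least 1 of the 4 pairs over both Dox states, Cdkn1c and Phlda2 being the exceptions, where 33.6% of the 11177 tested gene symbols were.

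Across the sets, 8 genes were called in at least 1 of 6 pairs, all but Cdkn1c, while 56.9% of the tested gene symbols were. Chek1_R against Control_R gave 5 genes, all higher, while 21.6% of all probes were called. Ppm1g_R against Control_R gave 6, of which Mest and Phlda2 were lower, and Ppp2r1b_R against Control_R gave 6, all higher, beside 29.7% and 29.9% of all probes. Against Bub1b_R the counts were 4 for Chek1_R (11.5%), 4 for Ppm1g_R (16.5%) and 3 for Ppp2r1b_R (23.9%). These pairs share the arrays of Control_R or of Bub1b_R, and each carries the difference between the array sets.

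**Figure D2:**
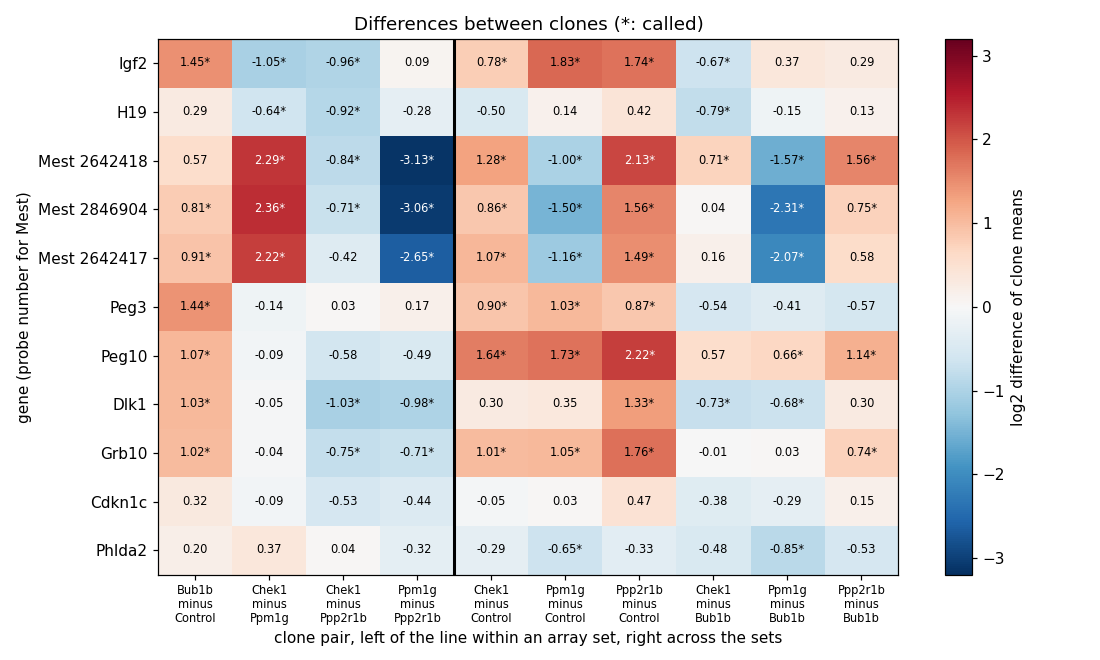
Differences between clones for the 11 member probes, each the difference of 2 clone means over both Dox states (6 against 6 arrays), on the log2 scale in colour and number, with called differences starred. The 4 pairs left of the line lie within an array set and the 6 right of it across the sets. The Mest rows hold the darkest cells, down to -3.13 for Ppm1g_R minus Ppp2r1b_R.

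For 10 of the 11 member probes the range of the 5 clone means was wider than the largest change on Dox withdrawal in any clone. This held for 83.9% of all tested probes, so it is close to the rule on these arrays and not particular to imprinted genes. Counting only pairs within an array set, the largest clone difference was above the largest Dox change in 10 of 11 member probes and in 63.3% of all probes. The exception was Cdkn1c, with a clone difference of 0.53 and a Dox change of 0.66. Split by source, the clone held 49.7% to 95.6% of the variance of a member probe and Dox 0.139% to 31.2%, while the medians over all tested probes were 66.0% and 3.91%. The lowest clone share was that of Cdkn1c, and the highest that of Grb10, in which Dox held 2.68%.

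**Figure D3:**
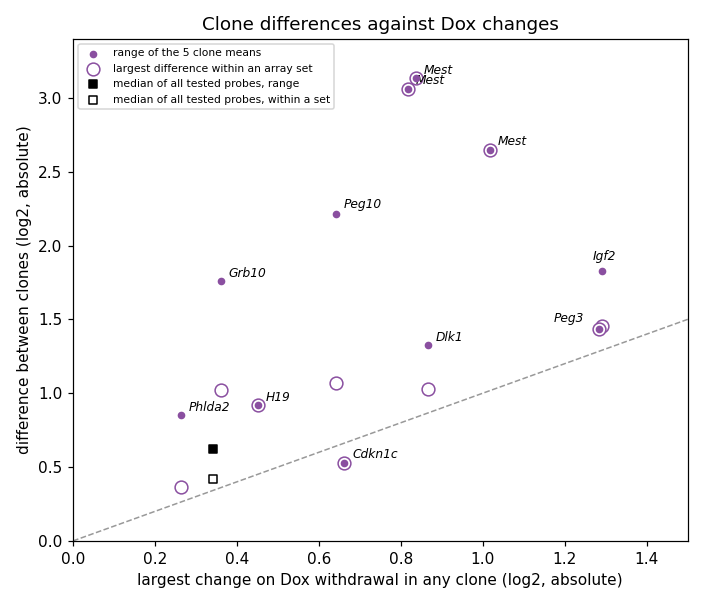
Clone differences against Dox changes. Each member probe is placed by its largest change on Dox withdrawal in any clone (x axis, log2) and by its clone difference (y axis, log2), as the range of the 5 clone means (filled) and as the largest difference within an array set (open), with squares for the medians of all tested probes and a dashed line of equality. Cdkn1c alone lies below the line, and the 3 Mest probes lie highest, between 2.65 and 3.13.

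Igf2, the paternally expressed insulin-like growth factor, was among the brightest probes on the arrays. In Control_R it read 12.63, 12.72 and 12.60 with Dox and 13.23, 13.15 and 13.10 without. In Bub1b_R the values were 14.21, 14.24 and 14.10 with Dox and 14.45, 14.58 and 14.58 without. The arrays labelled Chek1_R gave 13.13, 12.95 and 13.05 with Dox and 14.40, 14.32 and 14.28 without. With and without Dox did not overlap in any of these clones. On the arrays labelled Chek1_R the mean rose from 13.04 with Dox to 14.33 without. In Control_R, of the other array set, it rose from 12.65 to 13.16. In Ppm1g_R it read 14.38, 14.42 and 14.35 with Dox and 14.91, 15.19 and 15.15 without. In Ppp2r1b_R the values were 14.28, 14.49 and 14.38 with Dox and 14.80, 14.88 and 15.04 without.

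The Dox change of Igf2 was 1.29 ± 0.078 (SE) on the arrays labelled Chek1_R (2.45-fold, adjusted p 3.4e-12) and 0.70 in Ppm1g_R (1.63-fold, adjusted p 4.6e-07). It stayed under 1.5-fold in Ppp2r1b_R (0.52), Control_R (0.51, adjusted p 2.2e-04) and Bub1b_R (0.35). The change on the arrays labelled Chek1_R was larger than that of Control_R by 0.78 (adjusted p 1.4e-05), and those of the other rescue clones differed from it by -0.16 to 0.19 with adjusted p of 0.29 to 0.97. The Ppm1g_R call did not hold under scaling to the median in place of quantiles (0.25, adjusted p 0.11). There the deposited signals stood at 24196, 26757 and 30025 with Dox and at 32144, 30325 and 32047 without, with Igf2 the 23rd to 43rd brightest probe on the latter arrays, whose brightest probes reached 37737 to 45998.

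Between clones, Igf2 was higher in Bub1b_R than in Control_R by 1.45 (2.74-fold, adjusted p 9.9e-17), with no overlap between the 6 arrays of each. The order of clone means ran Ppm1g_R (14.73), Ppp2r1b_R (14.65), Bub1b_R (14.36), Chek1_R (13.69) and Control_R (12.91). The first pair did not differ beyond its spread (0.087, adjusted p 0.19). The distance of Chek1_R from the rest depended on Dox. Against Control_R, a pair across the sets, it was 0.39 on the arrays with Dox and 1.17 on those without. Against Ppp2r1b_R it was -1.34 with Dox and -0.57 without, which is under 1.5-fold. Against Ppm1g_R it was -1.34 with Dox and -0.75 without (adjusted p 7.7e-08), and both were called.

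H19, the maternally expressed noncoding RNA of the same locus, gave low signals, 30.8 to 148.1 as deposited. Over the 6 arrays of a clone the lowest, median and highest values were 5.47, 5.90 and 6.18 in Chek1_R and 6.16, 6.36 and 6.70 in Control_R. Chek1_R lay lowest, and its arrays did not overlap those of Bub1b_R, Ppm1g_R or Ppp2r1b_R. Its difference was -0.92 from Ppp2r1b_R (1.89-fold, adjusted p 1.7e-07) and -0.64 from Ppm1g_R (adjusted p 3.6e-05). The second call was lost without Ppm1g_R -Dox replicate 3 (-0.55). No change of H19 on Dox withdrawal was called, the changes lying between 0.12 in Bub1b_R and 0.45 on the arrays labelled Chek1_R (adjusted p 0.026, 1.37-fold). The other listed gene of this cluster, Ins2, did not pass the detection filter.

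Mest, a paternally expressed gene for an enzyme of the alpha/beta hydrolase fold, varied most among the members between clones. The brightest of its 3 probes read 9.98, 10.10 and 10.33 with Dox and 10.83, 10.78 and 10.90 without in Ppp2r1b_R. In Ppm1g_R it read 7.32, 7.52 and 7.36 with Dox and 7.39, 7.35 and 7.20 without. Every array of Ppp2r1b_R lay more than 2 units above every array of Ppm1g_R. The arrays labelled Chek1_R gave 9.13, 9.27 and 9.27 with Dox and 9.94, 10.30 and 9.94 without. Bub1b_R gave 9.01, 8.71 and 8.40 with Dox and 9.10, 9.30 and 9.06 without, and Control_R 8.30, 8.43 and 8.29 with and 8.53, 8.15 and 8.45 without.

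Ppm1g_R minus Ppp2r1b_R was -3.13 ± 0.090 (SE) for that probe (8.77-fold, adjusted p 1.1e-18), and the other probes gave -3.06 and -2.65. The difference stood in both Dox states, at -2.74 with and -3.53 without, and the 36 array pairs of each probe all went this way. Chek1_R exceeded Ppm1g_R by 2.29, 2.36 and 2.22 in the 3 probes. Ppm1g_R was also the lowest clone against Control_R (2.01-fold lower in the brightest probe, -1.50 and -1.16 in the others), a pair that crosses the array sets. Bub1b_R against Control_R was called in 2 probes (0.81 and 0.91) and was 0.57, or 1.48-fold, in the brightest. All 10 clone pairs held a Mest call in at least 1 probe, and Chek1_R against Bub1b_R held it in 1 probe alone (0.71, with 0.044 and 0.16 in the others).

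**Figure D4:**
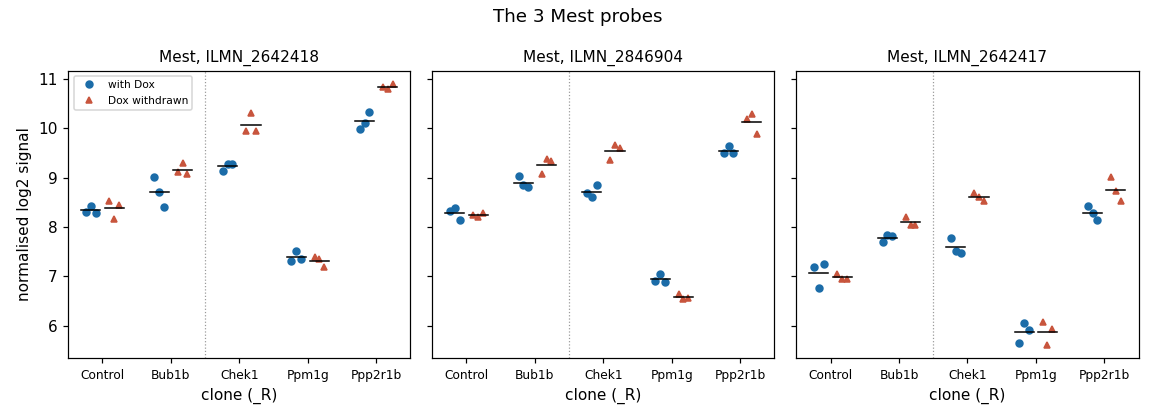
The 3 Mest probes on the 30 arrays. The y axis is the normalised log2 signal, the x axis the clone, circles are arrays with Dox, triangles arrays after Dox withdrawal, black lines the means of 3 arrays, and the dotted line parts the array sets. Ppm1g_R lies lowest and Ppp2r1b_R highest in all 3 probes.

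On Dox withdrawal Mest rose in all 3 probes on the arrays labelled Chek1_R, by 0.84, 0.82 and 1.02 (adjusted p 1.4e-05, 8.9e-07 and 2.2e-06). In Ppp2r1b_R it was called in the brightest probe (0.70, adjusted p 2.5e-04), while the others gave 0.58 and 0.47, under 1.5-fold. In Ppm1g_R the probes gave -0.086, -0.36 and 0.0054, and none was called. Control_R gave 0.038, -0.039 and -0.087. The change on the arrays labelled Chek1_R exceeded that of Control_R by 0.80, 0.86 and 1.11, and that of Ppp2r1b_R did so by 0.66 and 0.62 in 2 probes. The Ppp2r1b_R calls did not hold in a fit of only the arrays compared (adjusted p 0.061 and 0.065). The first was lost without Control_R +Dox replicate 2 (adjusted p 0.057), Control_R -Dox replicate 2 (0.070) or Ppp2r1b_R +Dox replicate 1 (0.062), and the second without Control_R +Dox replicate 2 (0.57, under 1.5-fold) or Ppp2r1b_R -Dox replicate 2 (0.53).

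Dlk1, a paternally expressed transmembrane protein related to the Notch ligands, read 7.49, 7.37 and 7.00 with Dox and 8.09, 8.10 and 8.23 without in Ppp2r1b_R. The arrays labelled Chek1_R gave 6.43, 6.03 and 6.29 with Dox and 7.00, 7.04 and 7.32 without. The groups did not overlap in either clone, and both changes were called, at 0.85 (1.80-fold, adjusted p 1.4e-04) and 0.87 (1.82-fold, adjusted p 4.9e-05). Control_R gave 6.04, 6.69 and 6.37 with Dox and 6.34, 6.28 and 6.63 without, a change of 0.049. The changes in the other rescue clones, 0.39 in Bub1b_R and 0.22 in Ppm1g_R, did not pass.

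The Dlk1 changes on the arrays labelled Chek1_R and in Ppp2r1b_R exceeded that of Control_R by 0.82 (adjusted p 0.0063) and 0.80 (adjusted p 0.017). The second did not pass without Control_R +Dox replicate 2 (0.64, adjusted p 0.056) or in a fit of only the arrays compared (adjusted p 0.11). Between clones, Dlk1 was higher in Bub1b_R than in Control_R by 1.03 (adjusted p 6.0e-09) and lower in Chek1_R and Ppm1g_R than in Ppp2r1b_R (-1.03 and -0.98). Of its cluster, 1 of 2 listed neighbours was tested, Dio3, which was called in none of the 19 contrasts.

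Peg3, a paternally expressed zinc finger protein, read 6.96, 7.09 and 6.70 with Dox and 8.20, 8.10 and 8.31 without on the arrays labelled Chek1_R. In Bub1b_R it read 7.61, 7.91 and 7.73 with Dox and 8.44, 8.42 and 8.48 without. In Ppp2r1b_R it read 7.23, 6.66 and 7.41 with Dox and 7.85, 8.22 and 7.80 without. None of these overlapped, and Peg3 was the member called in the most clones on withdrawal, by 1.28 (2.44-fold, adjusted p 1.5e-06), 0.70 (adjusted p 0.0030) and 0.86 (adjusted p 5.0e-04) in the same order. Ppm1g_R (0.42) and Control_R (0.31, on arrays from 6.22 to 7.03) did not pass.

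The change of Peg3 on the arrays labelled Chek1_R was 0.97 above that of Control_R (adjusted p 0.0048), and in the other rescue clones the excess was 0.10 to 0.55 and did not pass. The Ppp2r1b_R change did not pass in a fit of only the arrays compared (adjusted p 0.056). Between clones, Bub1b_R exceeded Control_R by 1.44 (2.71-fold, adjusted p 1.8e-10), with all 36 array pairs in that direction. Over both Dox states the 3 clones of the high-signal set did not differ beyond their spread, the pairs lying between -0.14 and 0.17. By Dox state, Chek1_R minus Ppm1g_R was -0.57 with Dox (adjusted p 0.0099, under 1.5-fold) and 0.30 without (adjusted p 0.19). Its neighbour Usp29 was called lower on withdrawal in Bub1b_R (-0.71) and lower in Ppm1g_R than in Control_R (-1.01, with the probe detected on 2 of the 6 arrays of Ppm1g_R), where Peg3 was higher by 1.03.

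Peg10, a paternally expressed gene derived from a retrotransposon and needed for the placenta, rose on withdrawal in Bub1b_R. Its values there were 6.55, 6.95 and 6.51 with Dox and 7.34, 7.35 and 7.25 without, which did not overlap. The change was 0.64 (1.56-fold, adjusted p 4.5e-04), and it fell under 1.5-fold without Bub1b_R +Dox replicate 1 (0.58) or replicate 3 (0.56). In the other clones the change was 0.20 to 0.47 and was not called, and the difference between the changes of Bub1b_R and Control_R (0.35, adjusted p 0.23) did not pass.

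Peg10 separated Control_R from the rest. Its 6 arrays there lay between 5.69 and 6.34, and Bub1b_R, from 6.51, did not overlap them, a difference of 1.07 (2.10-fold, adjusted p 2.2e-10). In Control_R the probe was detected but lay near the floor, with deposited signals of 18.9 to 50.7. The lowest detected signals of that array set were 12.9 to 20.9, so the size of differences from Control_R is less certain. The high-signal clones stood higher again, with clone means of 7.56 (Chek1_R), 7.65 (Ppm1g_R) and 8.13 (Ppp2r1b_R), pairs that cross the sets. Within that set no pair was called over both Dox states, the largest being -0.58 for Chek1_R minus Ppp2r1b_R (1.49-fold). On the arrays without Dox alone, Chek1_R and Ppm1g_R were called lower than Ppp2r1b_R, the differences being -0.60 (adjusted p 3.7e-04) and -0.62 (adjusted p 2.1e-04). Of its cluster 3 of 6 listed neighbours were tested. Pon2 was higher in Bub1b_R than in Control_R by 1.00 and rose on withdrawal in Bub1b_R (0.63) and Ppm1g_R (0.96).

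**Figure D5:**
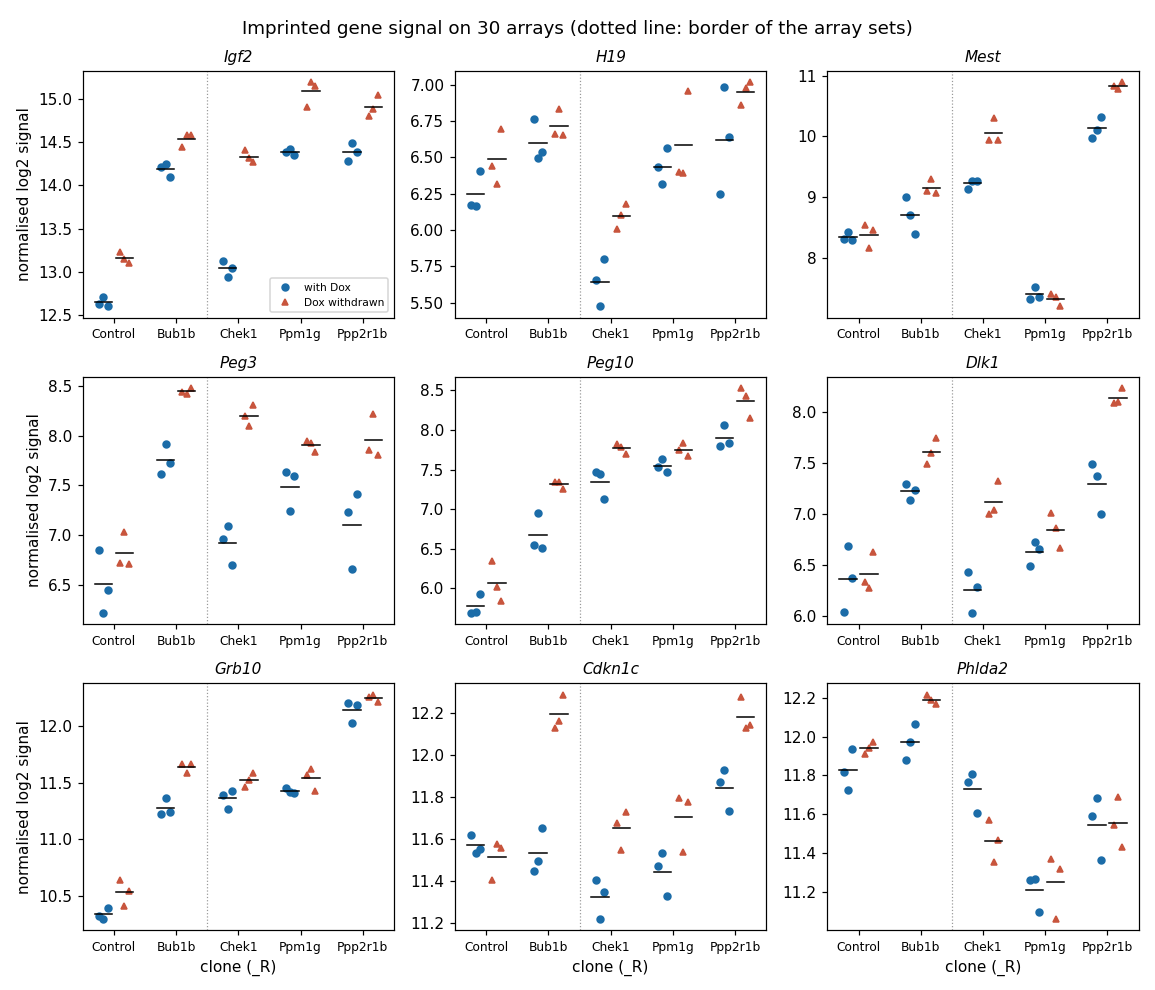
The 9 genes on the 30 arrays, 1 panel a gene (for Mest the brightest probe). The y axis is the normalised log2 signal with its own scale in each panel, circles are arrays with Dox, triangles arrays after withdrawal, black lines the means of 3 arrays, and the dotted line parts the low-signal from the high-signal set. Grb10 steps from clone to clone with little change by Dox, while Cdkn1c in Bub1b_R steps mainly with Dox.

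Grb10, an adaptor protein that dampens insulin and IGF receptor signalling and is expressed from the maternal copy in most tissues, differed mainly by clone and less by Dox. Over the 6 arrays the lowest, median and highest values were 10.30, 10.40 and 10.64 in Control_R. They were 12.03, 12.21 and 12.28 in Ppp2r1b_R. Each clone pair that was called, 7 of 10, showed no overlap of arrays. Bub1b_R was 1.02 above Control_R (2.03-fold, adjusted p 4.7e-15), and Chek1_R and Ppm1g_R were below Ppp2r1b_R (-0.75 and -0.71). These calls against Ppp2r1b_R did not hold under median scaling (-0.30 and -0.31), where the medians of all probes were 0.20 and 0.18 in place of 0.031 and 0.014. Bub1b_R, Chek1_R and Ppm1g_R did not differ beyond their spread. The largest change on Dox withdrawal was 0.36 in Bub1b_R, under 1.5-fold. The arrays there did not overlap, at 11.22 to 11.36 with Dox and 11.58 to 11.66 without. No Dox change of Grb10 was called.

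Of the Grb10 cluster, Ddc and Cobl were tested. Ddc was higher in Ppm1g_R than in Ppp2r1b_R by 1.17, where Grb10 was lower. Cobl was lower in Ppp2r1b_R than in Control_R by its brighter probe (-1.33), where Grb10 was higher by 1.76. Its other probe was called lower too, but was detected on 2 of the 6 arrays of Ppp2r1b_R.

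Cdkn1c, the maternally expressed inhibitor of cyclin-dependent kinases p57, was the member whose largest Dox change exceeded its largest clone difference over both Dox states, although the clone held the larger share of its variance. In Bub1b_R it read 11.45, 11.50 and 11.65 with Dox and 12.13, 12.16 and 12.29 without. In Control_R it read 11.62, 11.54 and 11.55 with Dox and 11.40, 11.58 and 11.56 without. The change in Bub1b_R was 0.66 ± 0.083 (SE, 1.58-fold, adjusted p 1.7e-06), and it exceeded that of Control_R by 0.72 (adjusted p 2.0e-04). In the other rescue clones it was 0.26 to 0.34, under 1.5-fold, with adjusted p of 0.0037 to 0.025. No clone pair was called over both Dox states, the largest being Chek1_R minus Ppp2r1b_R (-0.53, 1.44-fold, with no overlap of arrays). On the arrays without Dox, Bub1b_R exceeded Control_R by 0.68 (adjusted p 2.0e-07), and Ppp2r1b_R, a pair across the sets, did so by 0.67 (adjusted p 1.8e-07). Both were called, and with Dox the same pairs gave -0.037 (adjusted p 0.77) and 0.28 (adjusted p 0.0061).

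Phlda2, a maternally expressed gene of the same cluster that restrains placental growth, was not called on withdrawal in any clone. The change was -0.26 on the arrays labelled Chek1_R (adjusted p 0.032, 1.20-fold) and between 0.0091 and 0.22 elsewhere. Ppm1g_R had the lowest arrays, 11.06 to 11.37, which did not overlap those of Control_R, 11.72 to 11.97 (-0.65, adjusted p 3.5e-09, a pair across the sets). Of 8 listed neighbours 6 were tested. Slc22a18, an organic cation transporter, fell on withdrawal in its brighter probe by 0.80 in Bub1b_R, by 0.88 in Ppm1g_R and by 0.76 on the arrays labelled Chek1_R, opposite in sign to Cdkn1c in each. In Ppp2r1b_R that probe gave -0.28 (adjusted p 0.10), and the dimmer probe, called there, was detected on 0 of the 6 arrays. For the brighter probe Bub1b_R minus Control_R was -1.28. Ascl2, a transcription factor of the trophoblast, was lower than in Control_R in all 4 rescue clones (-0.72 in Bub1b_R). Only the pair with Bub1b_R lies within an array set, and the others cross the sets. The probe was detected on 21 arrays and not on the rest, so the size of these differences is less certain. Its clone means were 6.51 in Control_R and 5.41 to 5.84 in the rescue clones.

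The cluster of Snrpn was read through its neighbours, of which 6 of 7 were tested. Both probes of Snurf were higher in Bub1b_R than in Control_R, by 0.82 and 0.78, and Ndn by 0.59. Atp10a was higher in Bub1b_R by 1.14 and rose on withdrawal on the arrays labelled Chek1_R (0.71). For Ube3a 1 probe was higher in all clones of the high-signal set than in Control_R (1.34, 1.65 and 1.57) and the other was called in no contrast, so the probes disagree.

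The change on Dox withdrawal was compared between clones directly. A limma F-test of equal changes in the 5 clones passed for 5 of the 9 member genes (Igf2, Mest in all 3 probes, Peg3, Cdkn1c and Dlk1), where 30.6% of all tested probes passed. Against Control_R, the change was larger for Cdkn1c in Bub1b_R, where 5.15% of all probes differed, for Igf2, Mest, Peg3 and Dlk1 on the arrays labelled Chek1_R (8.99%), and in Ppp2r1b_R for Mest and Dlk1 (3.28%). In Ppm1g_R no member was called by limma (5.27%), and none passed on its adjusted p alone. Without the arrays labelled Chek1_R the F-test count was 3 and the count against Control_R was 3. The comparisons against Control_R share its 6 arrays.

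A wider list of 70 other imprinted gene names had 53 genes on the array and 34 tested. On Dox withdrawal 1 was higher and 0 lower in Control_R, 2 and 3 in Bub1b_R, 2 and 2 in Ppm1g_R and in Ppp2r1b_R, and 2 and 1 on the arrays labelled Chek1_R, with list medians between -0.012 and 0.076. In the same order, 1.10%, 5.60%, 4.37%, 4.82% and 9.27% of all tested probes were called. The wider list held calls in both directions, beside the members' calls, which were all higher. Bub1b_R against Control_R gave 7 higher and 5 lower, beside 16.5% of all probes. The 3 pairs of the high-signal set gave 2 and 1, 2 and 2, and 4 and 4, beside 6.26%, 7.96% and 14.5%. Outside the members' clusters the widest ranges of clone means were those of Slc38a4 (2.41), an amino acid transporter, Nnat (1.71) and H13 (1.51). Slc38a4 was lower in Bub1b_R than in Control_R (-0.88). Nnat, detected on 8 arrays, was called lower in Bub1b_R than in Control_R, a pair within a set (clone means 5.41 and 6.51). It was detected on no array of the high-signal set, where the lowest detected signals were higher. Across the sets it was at least 1.91-fold, 1.84-fold and 1.78-fold higher in Control_R than in Chek1_R, Ppm1g_R and Ppp2r1b_R.

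Of the factors that keep imprints, 9 of 11 listed were tested. On Dox withdrawal 1 was called in Ppm1g_R and 1 in Ppp2r1b_R, both lower, beside 4.37% and 4.82% of all probes. None was called in the other clones. Dppa3, which guards maternal methylation in the egg, fell by 0.78 on withdrawal in Ppp2r1b_R. Uhrf1 was lower without Dox in Ppm1g_R, at least 1.31-fold, in a probe not detected there without Dox, while its far brighter probe, detected on all 30 arrays, gave -0.28 (adjusted p 0.0066, under 1.5-fold). Zfp57 was lower in Ppp2r1b_R than in Chek1_R and Ppm1g_R, the differences being 0.62 and 0.92. Across the sets Zfp57 was called lower in Ppp2r1b_R than in Control_R and Bub1b_R, and Trim28 lower than in Bub1b_R (29.9% and 23.9% of all probes). Dppa3 was called higher in Ppm1g_R than in Control_R (29.7%). The Dox change of Dppa3 was called below that of Control_R in Bub1b_R (5.15%), Ppp2r1b_R (3.28%) and on the arrays labelled Chek1_R (8.99%). So were those of Zfp57 in Ppp2r1b_R and Uhrf1 in Ppm1g_R (5.27%). No gene of this list was called between Bub1b_R and Control_R.

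Markers of other cell types moved in the same arrays, and their part in the results above was not tested. In bulk RNA, more cells of a type and more RNA per cell cannot be told apart. The pluripotency genes Pou5f1, Nanog and Sox2 were detected on all 30 arrays. Of 5 tested trophoblast genes, all were called higher without Dox in Bub1b_R, Ppp2r1b_R and the arrays labelled Chek1_R, while Ppm1g_R had 4 and Control_R 0 by limma, and the placental markers Prl3d1 and Elf5 were detected on 0 arrays. Of 8 tested mesoderm genes 6, 6, 6 and 3 were called higher in Bub1b_R, Chek1_R, Ppm1g_R and Ppp2r1b_R and 1 in Control_R. Eomes, detected on 10 arrays, stands in both lists and was called higher in each rescue clone. In its own marker measurements after Dox removal the paper reports more T, Mixl1 and Fgf5 and no increase of trophectodermal markers. The trophoblast list therefore does not by itself show trophoblast cells.

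The summed signal of the trophoblast genes on the arrays ran from 1946 to 2053 with Dox and 2669 to 2744 without in Control_R, and from 4816 to 4925 and 10390 to 10820 in Bub1b_R. On the arrays labelled Chek1_R it was 5192 to 5615 and 11430 to 11870. Ppm1g_R gave 8308 to 8835 and 14280 to 15740, and Ppp2r1b_R 7872 to 8464 and 13620 to 14180. The sum was thus higher without Dox in each clone, and lowest in Control_R. It adds signals that are not log-transformed, so Krt8 and Krt18 weigh most in it. Their clone means were 10.42 and 9.71 in Control_R, where Cdx2 was next at 5.58. In Ppp2r1b_R they were 12.71 and 11.76, with Cdx2 at 8.41. For the mesoderm genes the sum was 395.1 to 463 and 414.5 to 435.3 in Control_R and 1203 to 1261 and 5438 to 5586 in Bub1b_R. It was 450.7 to 505.2 and 3325 to 3430 on the arrays labelled Chek1_R. Ppm1g_R gave 1210 to 1266 and 2536 to 2721, and Ppp2r1b_R 678.7 to 698.9 and 1507 to 1601.

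Of 11 tested fibroblast genes, which the feeder layer could bring, 3, 5, 6 and 5 were higher without Dox in Bub1b_R, Chek1_R, Ppm1g_R and Ppp2r1b_R and 0 in Control_R by limma. Thy1, of the same list, was called lower without Dox on the arrays labelled Chek1_R and in Ppm1g_R. Col1a2 was detected on 0 arrays and Col3a1 on 8, while Col1a1 was detected on all 30. The summed signal of this list was 5518 to 5872 with Dox and 4989 to 5176 without in Control_R, 9355 to 10340 and 11820 to 12550 in Bub1b_R, and 8419 to 9174 and 7299 to 7675 on the arrays labelled Chek1_R. It was 6122 to 6426 and 9631 to 10300 in Ppm1g_R, and 6305 to 6384 and 5882 to 5956 in Ppp2r1b_R. The brightest gene weighs most in this sum, here Acta2, with a clone mean of 13.13 in Bub1b_R, where Timp3 was next at 9.08. The sum was lower without Dox on the arrays labelled Chek1_R and in Ppp2r1b_R. The mean log2 signal over the list was higher without Dox in both, 7.17 to 7.18 with and 7.62 to 7.68 without on the arrays labelled Chek1_R, and 7.27 to 7.32 and 7.71 to 7.82 in Ppp2r1b_R. It was 6.99 to 7.15 with and 7.01 to 7.04 without in Control_R. Dcn, which the wider imprinted list also holds, was higher without Dox in all 4 rescue clones. It was higher by 0.68 in Bub1b_R, and since no array with Dox detected it in the others, at least 1.25-fold higher in Ppm1g_R, 1.31-fold in Ppp2r1b_R and 1.91-fold on the arrays labelled Chek1_R.

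Of 9 tested pluripotency genes, 2, 1, 0 and 4 were lower without Dox in Bub1b_R, Chek1_R, Ppm1g_R and Ppp2r1b_R, and 1 was higher in Control_R. Their summed signal was lowest in Ppp2r1b_R without Dox (17410 to 17920, against 26800 to 28530 with Dox) and highest in Ppm1g_R and Control_R with Dox (35320 to 37720 and 36130 to 37340). Of 8 tested genes of the extraembryonic endoderm 3 were higher without Dox in Bub1b_R, 1 was lower on the arrays labelled Chek1_R and none was called by limma in the other clones.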

How the data were processed

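Expression was measured on 30 Illumina mouse bead arrays of 5 ESC clones with and without Dox, 3 arrays a condition. The authors deposited a table of signal intensity per probe and array that was not normalized, beside a detection p-value for each. The submitters' processing notes name lumi, and no background step is given in the sources used here. Date-like cells stood in 46 and 14 rows on 2 arrays, none of them on a member probe, and all sample columns were used (0 left out).

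Signals were background-corrected and quantile-normalized over the 30 arrays with limma's neqc (R 4.3.3, limma 3.58.1, statmod 1.5.0, offset 16). A probe was tested if its detection p was under 0.05 on at least 3 arrays, which left 15151 of 25697 probes (11177 symbols). A linear model with 1 mean for each of the 10 conditions (20 residual degrees of freedom) and limma's moderated test gave Dox changes, clone differences over both Dox states, differences of Dox changes from Control_R, and an F-test over the 5 clones. P-values were adjusted over all tested probes by Benjamini-Hochberg. Each kind of contrast was tested on simulated data. The number of arrays limits the precision.

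All members and probes are described, with the brightest tested probe where 1 was needed. Of the other imprinted genes, those of a member's cluster and, outside these clusters, the 3 with the widest clone range were named. Dppa3, Zfp57, Uhrf1, Trim28, Thy1 and Dcn were named after their values were seen. The members and gene lists were chosen with earlier results of these data known. Alternatives covered background, scaling, offset, filter, fold limit, the arrays in the fit, the Dox state, the replicate block, single arrays left out and the methods' t-test. Replicate numbers of the titles were not treated as pairs.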

Additional observations from a re-analysis of the deposited data

Results flagged for a closer look

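The change on Dox withdrawal differed among the 5 clones, by limma's F-test over all tested probes, for 5 member genes. The adjusted p was 5.1e-06 for Igf2, 8.5e-04, 6.6e-06 and 6.5e-04 for the 3 Mest probes, 0.016 for Peg3, 0.0011 for Cdkn1c and 0.0072 for Dlk1.

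Against the change in Control_R, that of the arrays labelled Chek1_R was larger by 0.78 (log2) for Igf2, by 0.80, 0.86 and 1.11 for the Mest probes, by 0.97 for Peg3 and by 0.82 for Dlk1. The Ppp2r1b_R change was larger by 0.66 and 0.62 for 2 Mest probes and by 0.80 for Dlk1. For Cdkn1c the Bub1b_R change was larger by 0.72. Each of these differences was itself tested and passed an adjusted p under 0.05 in limma. The Chek1 probe went against the Dox label of the arrays labelled Chek1_R, and the comparisons share the 6 arrays of Control_R.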

How the results depend on the processing

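The counts of member genes were 6 for Dox changes in the rescue clones, 0 in Control_R, 7 for clone pairs within a set, 8 across sets, 5 for Dox changes that differ from Control_R and 5 for the F-test. With an offset of 200 the counts within sets, across sets and against Control_R were 4, 5 and 3. With a 2-fold limit the rescue clones gave 3 and the differences from Control_R 1, and with no fold limit Control_R gave 1. With the 6 arrays labelled Chek1_R left out, an alternative chosen after seeing the data, the differences from Control_R and the F-test gave 3 each. Leaving out each array in turn gave 5 to 6, 0 to 0, 7 to 7, 8 to 8, 5 to 5 and 5 to 6 in the same order. No value of a called member turned its sign in any of these settings.

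Calls of single probes were lost in 31 cases with an offset of 200, 11 with median scaling, 10 with the methods' t-test after Benjamini-Hochberg, 6 with an offset of 50, 4 in fits of only the arrays compared, 5 with only the arrays with Dox, 5 with only those without Dox and 9 when 1 array was left out. Calls were gained in 5 cases with median scaling, 9 with no background correction, 5 with only the arrays with Dox, 9 with only those without Dox and 28 when 1 array was left out. The causes were not tested. With the methods' t-test the called genes numbered 6, 0, 7, 8 and 5 unadjusted and 5, 0, 7, 8 and 4 after adjustment, and the Dox changes in Ppp2r1b_R of Mest, Peg3 and Dlk1 had adjusted p of 0.057, 0.16 and 0.072. Normalizing within each array set was not run for pairs across the sets, for the differences from Control_R or for the F-test.

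With the replicate number as a block the counts were 6, 0, 7, 8, 5 and 5, and the block changed no member call. Arrays of the same number correlated in their deviations from the condition means at -0.21 to 0.17, and 12 of 30 arrays correlated best with their own number, so the numbers were not taken as pairing.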

Other observations

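The genes whose 10 condition means ran most like a member were listed for the 3 members with the widest clone range, as a description over means that share arrays and clones. For Mest they were Flot2 (Pearson r 0.97), Stx17 (0.964) and Zfp26 (0.961). For Peg10 they were B3gat3 (0.987), Socs6 (0.986) and A830007P12Rik (0.983), and for Igf2 Erlin2 (0.98), Bmp1 (0.978) and Plekhg3 (0.978). Among the members, Grb10 and Peg10 ran most alike (0.945), followed by Cdkn1c and Dlk1 (0.882), while Peg10 and Phlda2 ran most opposite (-0.564).

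Slc38a4 had clone means of 9.63 in Ppp2r1b_R, 9.10 in Ppm1g_R, 8.59 in Chek1_R, 8.10 in Control_R and 7.22 in Bub1b_R. Of the 3 H13 probes, 2 were called higher in Bub1b_R than in Control_R, by at least 1.45 on the log2 scale, and the other probe was not called there.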
